A study of Homo sapiens with 6 samples.

Results

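Homologous recombination and Fanconi anemia genes encode the proteins that repair broken DNA from a sister copy and that open DNA cross-links. A list of 39 genes with these functions was followed: BRCA1 and its partners, the proteins that trim DNA ends, the BRCA1-A complex, the strand exchange proteins, helicases and nucleases, the Fanconi proteins, and the kinases that signal damage. The platform annotation used here gave a probe set naming 1 gene for 35 of the 39, and all 35 were bright enough to be tested, among 11835 genes tested of 19775 with such a probe set. The other 4 are not analysed here.

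HT29 is a human colon cancer cell line. RNA of HT29 cells sensitive to methotrexate (MTX), an antifolate that stops thymidylate and purine synthesis, was compared with that of HT29 cells resistant to 10 μM MTX, 3 Affymetrix HG U133 Plus 2.0 arrays in each group. Sensitive cells were kept in Ham's F12 with whole serum, and resistant cells in a selective medium that lacks glycine, hypoxanthine and thymidine and holds dialyzed serum, so the effects of resistance and of medium cannot be told apart. The resistant cells are 1 line, raised earlier by exposure to rising drug levels. No source says that the triplicates came from separate cultures, so the spread between these arrays may be technical. The limma p-values rest on that spread, drawn for each gene toward its trend with signal over all genes tested.

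At a double-strand break, the MRE11-RAD50-NBN complex binds and trims the ends, BRCA1 with BARD1 promotes the trimming, and a recombinase filament, built with the help of its paralogs, searches the intact copy for the same sequence. Helicases and nucleases such as BLM, WRN and MUS81-EME1 then take the joined molecules apart. At a cross-link, the Fanconi core complex attaches ubiquitin to FANCI and its partner protein, and ATM and ATR, with CHEK1 and CHEK2, hold the cell cycle while repair goes on. Many of these genes are transcribed mostly in cells that copy their DNA, through E2F and CCAAT elements of their promoters.

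Promoter windows were read to see whether the genes that fell share these elements. The windows shown are the 250 bases before the RefSeq start of BRCC3, the member with the smallest p, of BLM, which fell and holds an E2F match, and of RAD51AP1, which holds an E2F match and did not pass the test. They are written 5′ to 3′ on the plus strand of GRCh38.p14, and capitals mark E2F and CCAAT matches on either strand.

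BRCC3, chrX:155071258-155071507: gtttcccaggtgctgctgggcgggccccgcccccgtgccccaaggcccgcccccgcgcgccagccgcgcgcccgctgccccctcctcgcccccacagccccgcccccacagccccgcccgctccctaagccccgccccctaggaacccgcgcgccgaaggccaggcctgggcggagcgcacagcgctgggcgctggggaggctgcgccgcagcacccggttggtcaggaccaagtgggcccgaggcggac
BLM, chr15:90717096-90717345: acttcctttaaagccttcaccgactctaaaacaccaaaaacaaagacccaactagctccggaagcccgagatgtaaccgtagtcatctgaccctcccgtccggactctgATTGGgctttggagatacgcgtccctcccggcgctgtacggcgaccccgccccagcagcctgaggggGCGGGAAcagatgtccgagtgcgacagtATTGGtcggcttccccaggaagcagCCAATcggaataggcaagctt
RAD51AP1, chr12:4538640-4538889: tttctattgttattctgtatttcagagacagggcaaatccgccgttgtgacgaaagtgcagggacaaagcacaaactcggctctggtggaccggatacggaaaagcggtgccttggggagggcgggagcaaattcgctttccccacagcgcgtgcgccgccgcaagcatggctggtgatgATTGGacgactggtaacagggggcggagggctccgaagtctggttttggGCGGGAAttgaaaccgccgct

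The BRCC3 window had a GC content of 80.4% and no match. The E2F match of BLM began 74 bases before the start, and its CCAAT matches 141, 46 and 21 bases before it. RAD51AP1 had an E2F match at 21 bases and a CCAAT match at 70 bases. The letters searched for E2F were TTNNCGC with C or G at each N, on both strands. Among the 31 tested members with a window, 10 held an E2F match (32.3%), against 17.6% of the windows of all genes tested and 11.0% of all windows in the table. No window was found for NBN, RAD54B and FANCI, which each fell at least 2-fold, nor for WRN, so the shares leave these genes out. Of the 13 members that fell and had a window, BLM and RAD51D held one (15.4%), and of the 18 that did not pass the test, 8 did (44.4%). CCAAT was present in 5 of the 13 (38.5%) and in 10 of the 18 (55.6%), against 35.3% of the windows of all genes tested. TTTGAA, the core of the cell cycle homology region, was in 0 of the 13 and in 3 of the 18, against 8.57%. Whether these shares differ between members that fell and members that did not was not tested.

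Of the 35 genes, 16 fell in resistant cells, 1 rose (WRN) and 18 did not pass the test, which was an adjusted p under 0.05 in limma over all genes tested. The 16 are 45.7% of the members, where 22.5% of all genes tested fell, and the 1 is 2.86%, where 12.4% rose. Without sensitive replicate 2, 10 members fell, and the methods' t-test on all arrays gave 10 with equal and 1 with unequal variances. The sign was negative in 31 of the 35, and the share over all genes tested is not given here. With quantile normalization FANCL (0.08), RAD51AP1 (0.09) and FANCM (0.03), none of them called, were positive. The median log2 fold change of the 35 was -0.36, and that of all genes tested -0.10. The members' median log2 signal was 4.16, 4.11 and 4.07 on the sensitive arrays and 3.77, 3.70 and 3.69 on the resistant arrays, so the groups did not overlap. In 20 members (57.1%) every resistant array was below every sensitive one, which held for 29.3% of all genes tested. A fall of at least 1.5-fold was reached by 11 members (31.4%), and by 14% of all genes tested. One of at least 2-fold was reached by 4 members, BRCC3, RAD54B, NBN and FANCI, and by 5.2% of all genes tested. BRCC3 and RAD54B fell by at least 3-fold (2.19% of all genes tested). Signals are given divided by the median of their array, and values for sensitive replicates 1 to 3 are followed by those for resistant replicates 1 to 3. Each change is a log2 fold change of resistant over sensitive with its standard error (SE, 3 against 3 arrays). The SE is the moderated one of limma, which is drawn toward the trend over all genes tested. In these bulk samples, fewer cells that express a gene and less RNA per cell cannot be told apart.

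**Figure D1:**
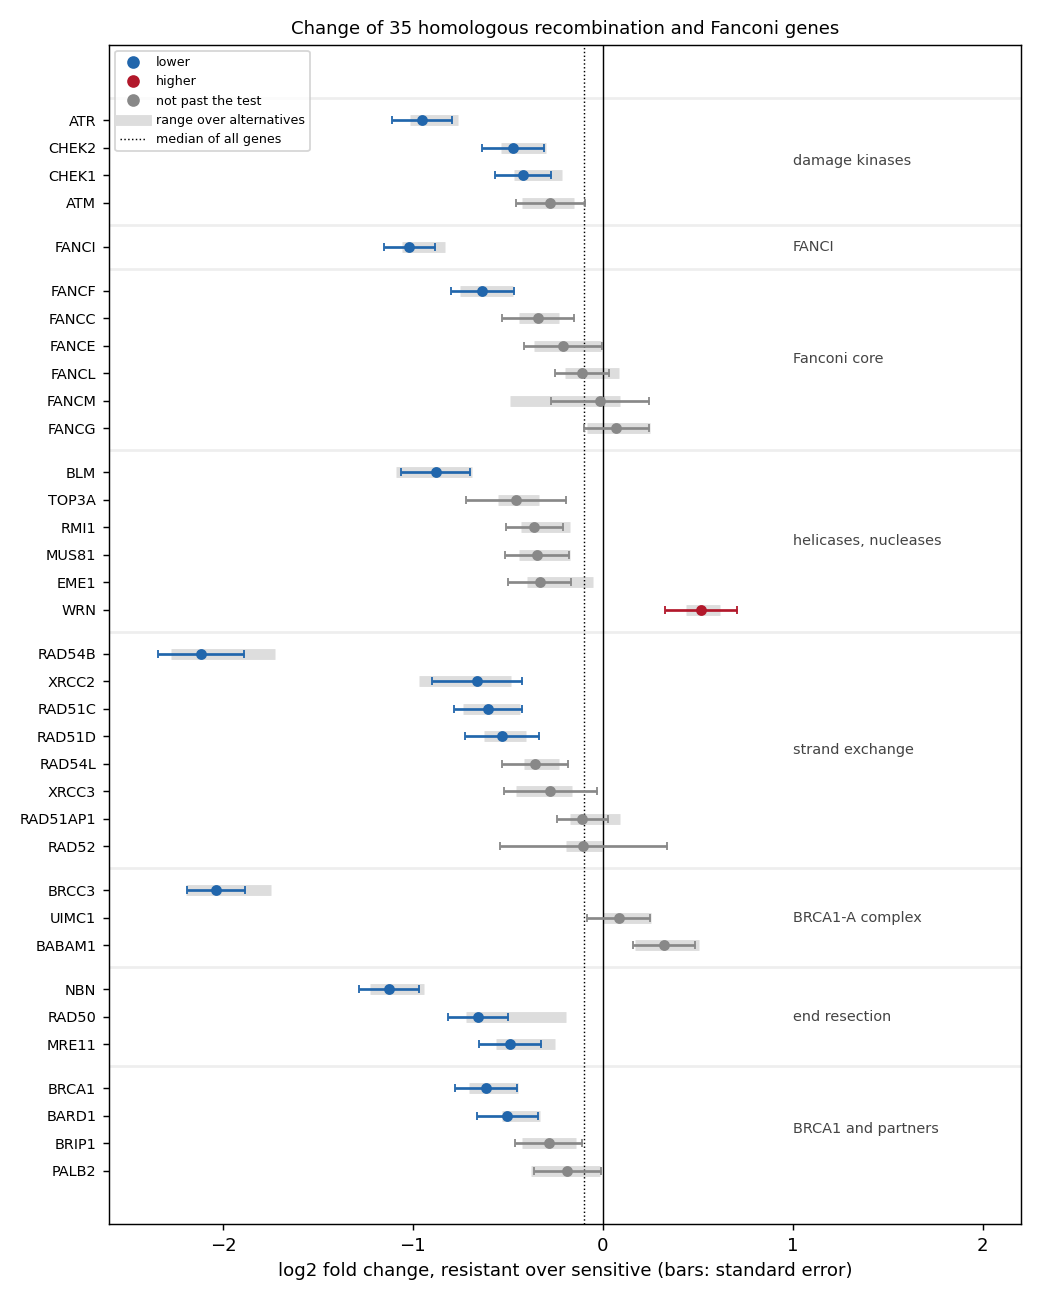
Log2 fold change of the 35 genes with a probe set, resistant over sensitive, grouped by role (points, 3 against 3 arrays; error bars, SE; grey bands, range over the alternative settings; dotted line, median of all genes tested at -0.10). The 16 genes that fell lie between -2.12 and -0.42, and WRN is the gene that rose, at 0.52.

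BRCA1, the ubiquitin ligase and scaffold that commits breaks to recombination, and BARD1, its binding partner in the ligase, both fell. BRCA1 had signals of 21.5, 21.3 and 21.4 on the sensitive and of 13.2, 13.1 and 15.8 on the resistant arrays. The 3 sensitive arrays were nearly equal, and all lay above the resistant ones. Its change was -0.61 ± 0.16 (adjusted p = 0.0030). BARD1 had 24.5, 22.5 and 22.2 against 16.8, 15.2 and 16.8, again without overlap, a change of -0.50 ± 0.16 (adjusted p = 0.013). PALB2, which bridges BRCA1 to the recombinase loader, did not pass the test (-0.19, adjusted p = 0.44), nor did BRIP1, the BRCA1-bound helicase (-0.28, adjusted p = 0.21), and in both the groups overlapped. The call of BARD1 was lost without sensitive replicate 1 or without sensitive replicate 2, and 1 of its 3 tested probe sets was lower.

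The 3 measured genes of the end-binding and trimming complex all fell. NBN, which recruits ATM to breaks, had signals of 40.5, 43.5 and 37.4 in sensitive and of 19.2, 15.9 and 20.9 in resistant cells. Every resistant array was well below every sensitive one. The change was -1.12 ± 0.16 (2.18-fold lower, adjusted p = 3.8e-07). RAD50, the clamp that tethers the ends, had 29.0, 28.8 and 30.1 against 20.4, 18.3 and 17.2 on its brightest probe set, a change of -0.66 ± 0.16 (adjusted p = 0.0011). MRE11, the nuclease of the complex, had 19.4, 18.9 and 20.5 against 14.5, 12.2 and 15.4, a change of -0.49 ± 0.17 (adjusted p = 0.019). When the probe sets of each gene were averaged in place of taking the brightest, neither RAD50 (-0.19) nor MRE11 (-0.25) passed the test, and MRE11 also lost its call without any one sensitive array or without resistant replicate 2.

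BRCC3, the deubiquitinase that removes lysine-63-linked ubiquitin chains in the BRCA1-A complex at breaks and in the cytoplasmic BRISC complex, had one of the 2 largest falls. Its signals were 93.5, 80.3 and 89.8 on the sensitive and 26.6, 18.4 and 19.9 on the resistant arrays, with a wide gap between the groups. The change was -2.04 ± 0.15 (4.10-fold lower, adjusted p = 5.9e-14). The other members of the complex did not fall. BABAM1, an adaptor of both complexes, had 22.6, 20.4 and 20.5 against 32.5, 23.9 and 23.7. All 3 of its resistant arrays lay above the sensitive ones, 2 of them narrowly, and its change of 0.32 ± 0.16 did not pass the test (adjusted p = 0.12), though it did with 3 other array scalings and with replicate number as a block. UIMC1, the subunit that reads ubiquitin chains, was at 16.98, 15.7 and 14.6 against 18.7, 15.8 and 15.7 (0.08, adjusted p = 0.73).

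The remaining subunits of the BRCC3 complexes were read from a list of 60 other recombination, Fanconi and damage signalling genes. BABAM2, the scaffold subunit, rose from 14.0, 11.8 and 12.5 to 24.0, 20 and 17.2 (0.67 ± 0.17, adjusted p = 0.0019). ABRAXAS1, which holds BRCC3 in the BRCA1-A complex, rose from 9.42, 8.75 and 7.02 to 17.1, 14.0 and 10.7 (0.71 ± 0.18, adjusted p = 0.0023). ABRAXAS2, which holds it in the BRISC complex, rose from 14.0, 14.3 and 12.2 to 21.9, 18.1 and 19.9 (0.56 ± 0.17, adjusted p = 0.0068) and was chosen after its values were seen. Its call was lost without sensitive replicate 3. The transcript of the catalytic subunit thus fell while those of 3 of its partners rose, and in each of the 4 the groups did not overlap. The 4 signs were the same in every alternative setting run. A fall without overlap was found in 29.3% of all genes tested, and the share for rises is not given here.

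**Figure D2:**
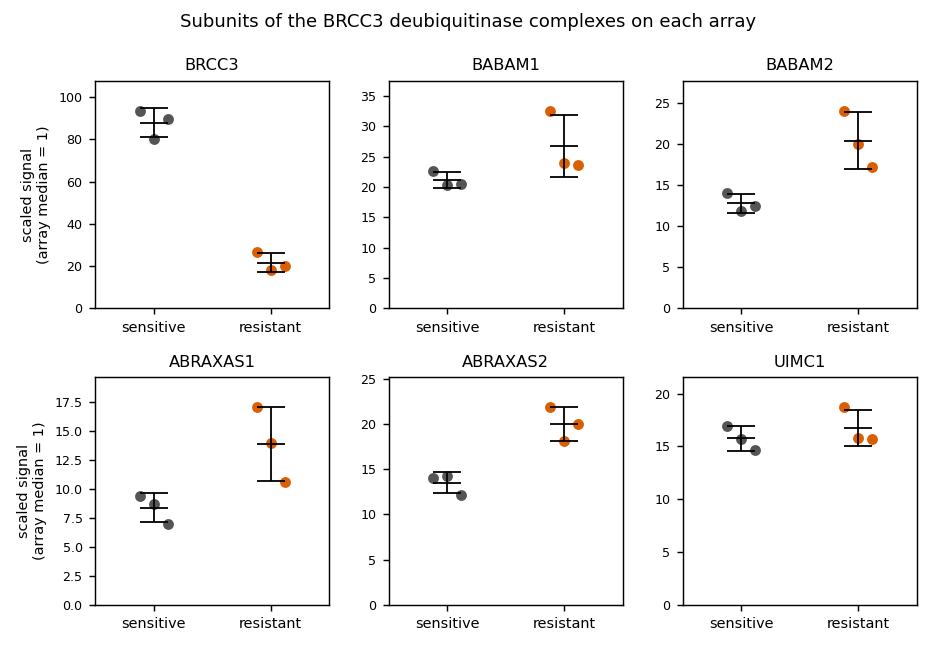
Signal over the array median on each array for BRCC3 and 5 subunits of its complexes, sensitive (grey) and resistant (orange) cells (points, arrays in replicate order; lines, mean ± SD, n = 3; every axis starts at 0). BRCC3 falls from 80.3 or more to 26.6 or less, whereas BABAM2, ABRAXAS1 and ABRAXAS2 rise without overlap.

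Of the 8 genes for strand exchange, 4 fell. RAD54B, a motor protein that helps the recombinase filament to invade duplex DNA, had signals of 12.3, 9.05 and 9.54 in sensitive and of 2.93, 1.54 and 2.89 in resistant cells. The groups were well apart. The change was -2.12 ± 0.22 (4.33-fold lower, adjusted p = 6.5e-10), and it rests on the single probe set of this gene. RAD54L, the closely related motor protein, was at 9.77, 8.63 and 9.14 against 7.16, 6.61 and 7.76, lower on every resistant array but not past the test (-0.36 ± 0.18, adjusted p = 0.11).

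The recombinase paralogs RAD51C, RAD51D and XRCC2, which help to load and steady the filament, also fell. RAD51C had 13.1, 11.9 and 11.9 against 9.63, 6.39 and 8.54 (-0.61 ± 0.18, adjusted p = 0.0072). RAD51D had 7.98, 6.47 and 5.89 against 4.88, 4.62 and 4.49 (-0.53 ± 0.19, adjusted p = 0.030). In both, every resistant array was below every sensitive one. XRCC2 had 4.42, 5.25 and 5.05 against 2.61, 2.41 and 4.72 (-0.66 ± 0.24, adjusted p = 0.028). Its groups overlapped, through resistant replicate 3, and 11 of 17 alternatives ended its call. RAD51C lost its call without resistant replicate 2, and RAD51D without any one of sensitive replicates 1 and 2 and resistant replicates 2 and 3. XRCC3, the partner of RAD51C, did not pass the test (-0.28, adjusted p = 0.41). RAD51AP1, which stimulates strand invasion, was at -0.11 (adjusted p = 0.58), and RAD52, a strand annealing protein, at -0.10 with the widest SE of the members (0.44). RAD52 was dim, at 1.38, 1.30 and 1.32 against 1.11, 1.23 and 1.41. Its arrays were close, and the moderated SE follows the trend of spread at low signal. XRCC3, RAD51AP1 and RAD52 all had overlapping groups.

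Among 6 helicases and nucleases, 1 fell and 1 rose. BLM, the helicase that dissolves double Holliday junctions, had 21.1, 16.5 and 19.1 in sensitive and 13.6, 9.99 and 7.82 in resistant cells, without overlap. The change was -0.88 ± 0.18 (adjusted p = 0.00021). WRN, the related helicase lost in Werner syndrome, had 4.56, 5.07 and 4.61 against 7.15, 6.15 and 7.14, higher on every resistant array. Its change was 0.52 ± 0.19 (adjusted p = 0.030), and 6 of 17 alternatives ended the call, among them the fits without any one sensitive array and without resistant replicate 3. RMI1 and TOP3A, which act with BLM, and MUS81 and EME1, a structure-specific nuclease, had changes of -0.36, -0.46, -0.34 and -0.33. None of these 4 passed the test (adjusted p from 0.061 to 0.18). In all 4 every resistant array was below every sensitive one, which held for 29.3% of all genes tested. For MUS81 the gap was narrow, with sensitive replicate 2 at 17.97 and resistant replicate 1 at 17.76.

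Among the measured Fanconi anemia genes, FANCI and FANCF fell. FANCI, which takes ubiquitin from the core complex and clamps the damaged DNA, had signals of 91.8, 87.6 and 95.3 in sensitive and of 46.5, 43.1 and 46.1 in resistant cells. Replicates were close and the groups wide apart. The change was -1.02 ± 0.13 (2.03-fold lower, adjusted p = 7.9e-08), and it was the only call of a member that none of the 17 alternatives ended. Of the 6 measured core complex genes, 1 fell. FANCF, the adaptor of the core, had 17.5, 17.2 and 16.8 against 12.3, 10.85 and 10.2 (-0.63 ± 0.17, adjusted p = 0.0026), without overlap. FANCC and FANCE, which form a module with FANCF, were at -0.34 and -0.21, the ubiquitin ligase FANCL was at -0.11, the DNA translocase FANCM at -0.01 and FANCG at 0.07. In each of these 5 the groups overlapped (adjusted p from 0.16 to 0.97). UBE2T, the ubiquitin-conjugating enzyme that works with FANCL on FANCI, is not in the 39 and fell from 86.6, 79.8 and 79.2 to 47.9, 47.2 and 51.0 (-0.75 ± 0.13, adjusted p = 2.3e-05).

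Of the 4 damage kinases, 3 fell. ATR, which responds to stalled forks and single-stranded DNA, had 37.1, 35.4 and 44.2 in sensitive and 21.5, 17.7 and 21.2 in resistant cells, without overlap. The change was -0.95 ± 0.16 (1.93-fold lower, adjusted p = 8.1e-06), and both tested probe sets were lower. With its probe sets averaged, dim ones included, the change was as large (-0.94 ± 0.32) but did not pass the test (adjusted p = 0.053). CHEK1, the kinase that ATR activates, had 45.0, 42.4 and 42.9 against 33.4, 29.4 and 34.6 (-0.42 ± 0.15, adjusted p = 0.024). CHEK2, the kinase that ATM activates, had 28.7, 23.2 and 22.6 against 19.3, 17.4 and 16.7 (-0.47 ± 0.16, adjusted p = 0.021). Every resistant array was below every sensitive one in both, but 7 alternatives ended the call of CHEK1 and 5 that of CHEK2. Among them were the fits without sensitive replicate 1 or 2 for both, without sensitive replicate 3 or resistant replicate 2 for CHEK1, and without resistant replicate 3 for CHEK2. ATM, which responds to double-strand breaks, had 8.77, 8.03 and 8.80 against 8.66, 6.42 and 6.28, and did not pass the test (-0.28, adjusted p = 0.25). Whether ATR changed more than ATM was not tested.

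**Figure D3:**
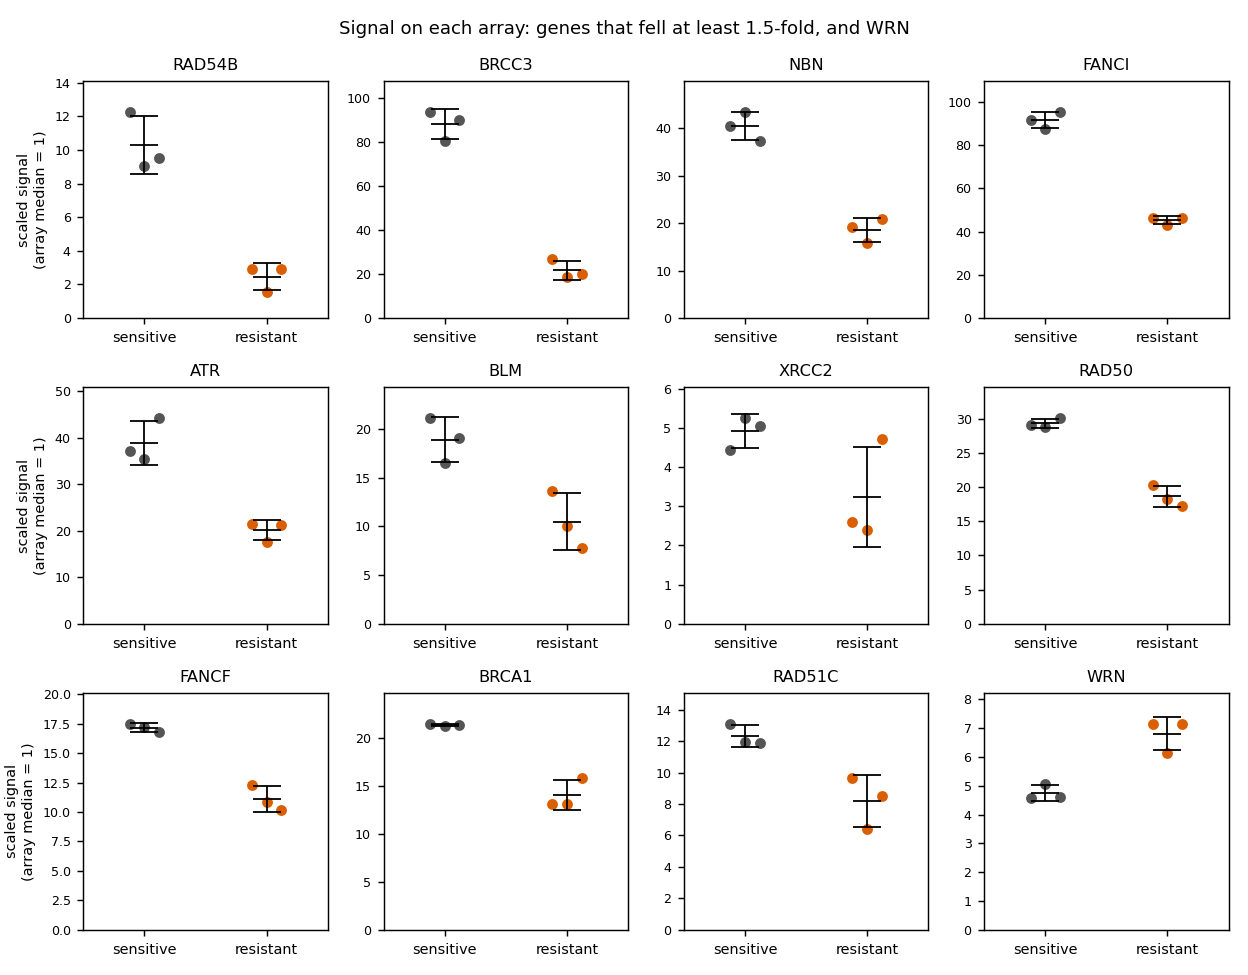
Signal over the array median on each array for the 11 genes that fell at least 1.5-fold and for WRN, sensitive (grey) and resistant (orange) cells (points, arrays in replicate order; lines, mean ± SD, n = 3; every axis starts at 0). XRCC2 is the gene of these 12 whose groups overlap, through resistant replicate 3 at 4.72.

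Several members have more than 1 probe set, which read different stretches of a transcript. The members had 76 probe sets in all, and 62 were tested in a fit of every probe set. Of the 62, 31 were lower (50%) and 1 higher, where 19.5% and 9.52% of all probe sets tested were. Of the 17 members with more than 1 tested probe set, 8 had every one lower, 5 had some lower, and 4 had none past the test. The 4 probe sets of BRCC3 lay between -2.04 and -1.61, the 4 tested of NBN between -1.57 and -1.12, and the 3 of FANCI between -1.19 and -0.97. CHEK1 had all 3 lower, from -0.79 to -0.42, and its brightest probe set gave the smallest fall. RAD50 was the called member whose probe sets differed in sign, at -0.66, -0.32 and 0.40, of which only the first passed the test. BRCA1 had a second probe set at -0.36 that did not pass, and BRIP1 a dimmer one that was lower (-0.52). BARD1 had others at -0.41 and -0.47 that did not pass, and MRE11 one at -0.31. Probe sets of a gene read the same RNA and are not independent.

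**Figure D4:**
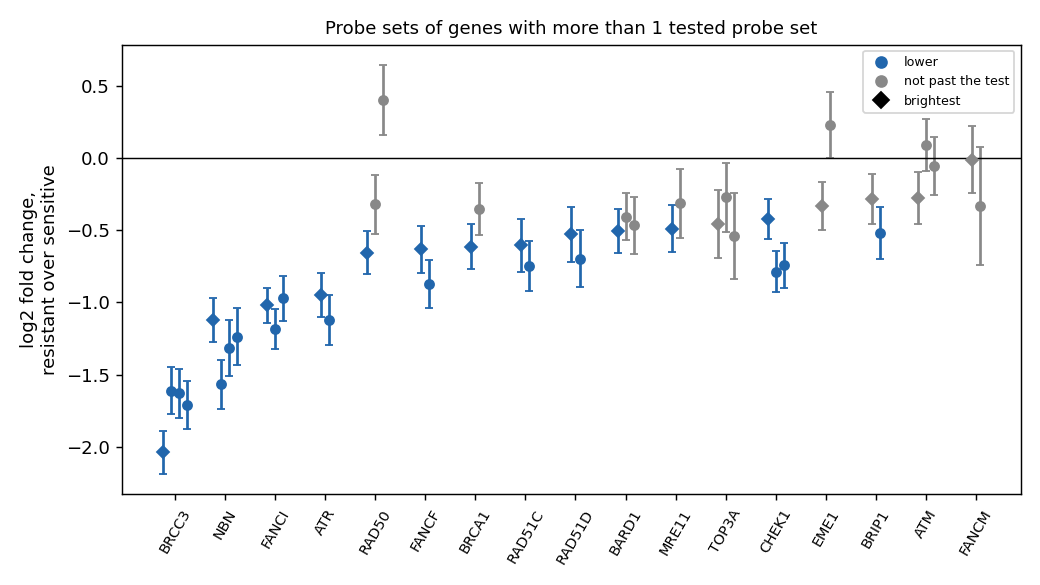
Log2 fold change of each tested probe set, resistant over sensitive, for the 17 genes with more than 1 (diamonds, brightest probe set; circles, others; bars, SE, 3 against 3 arrays; blue, lower at an adjusted p under 0.05 over all probe sets). The probe sets of BRCC3, NBN and FANCI are all lower, and those of RAD50 spread from -0.66 to 0.40.

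In the list of 60 related genes, 53 were tested. Of the 53, 12 fell (22.6%), 5 rose (9.43%) and 36 were not past the test. The list had a median of -0.20. These shares are near those of all genes tested (22.5% and 12.4%). With quantile normalization 8 fell and 12 rose, and with scaling to the median of the brighter probe sets 12 fell and 10 rose. CLSPN, which links ATR to CHEK1, had the largest fall of the list (-1.05 ± 0.28, adjusted p = 0.0034), from 3.92, 4.47 and 2.94 to 2.51, 1.58 and 1.46, a call that was lost, as was that of MCM9, when probe sets were averaged. EME2, the other partner of MUS81, fell by 0.87, FIGNL1, an ATPase that binds the recombinase, by 0.75, and MCM9, of the MCM8-MCM9 helicase, by 0.69 on the log2 scale. The largest rise was that of SFR1, which with SWI5 stimulates the recombinase, from 26.7, 24.6 and 28.4 to 48.2, 44.9 and 57.0 (0.91 ± 0.15, adjusted p = 8.0e-06). RPA3, the small subunit of the single-strand binding protein RPA, rose by 0.52 and was named after its values were seen, as it completes the 5.

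Genes of cell division moved with the members. Of 36 proliferation genes, 23 fell (63.9%) and none rose, with a median of -0.46. Of all genes tested 22.5% fell and 12.4% rose, with a median of -0.10. Their median log2 signal was 5.96, 5.89 and 5.87 on the sensitive and 5.48, 5.29 and 5.50 on the resistant arrays. The largest falls were those of CCNE2 (-1.43), the cyclin of replication onset, GINS1 (-1.35), of the replicative helicase, AURKA (-0.98), a mitotic kinase, and PLK1 (-0.85), another. CCNE2 is also among the neighbours of RAD54B given below. MKI67 (-0.06) and PCNA (-0.20) did not pass the test. RNA integrity was read from the 3′ to 5′ signal ratio. That of ACTB was 1.14 ± 0.0220 on the sensitive and 1.25 ± 0.0698 on the resistant arrays (SD, n = 3), and that of GAPDH 1.01 ± 0.00540 and 1.02 ± 0.0338. The part of proliferation and of RNA integrity in the falls of the members was not tested.

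Neighbouring genes moved with some of the members too. The 5 measured genes on each side were taken in the gene order of the RefSeq table, and 9 or 10 were found for each member. Around BRCC3, between FAM223B and IL9R at the end of chromosome X, 7 of 9 neighbours fell and their median was -1.42. As many neighbours that fell were found around 3.88% of the 11811 genes for which they could be counted. RAD54B and NBN both lie on chromosome 8. Of the neighbours of RAD54B, from RBM12B to CCNE2, 6 of 10 fell (median -0.82; 7.01% of genes had as many), and of those of NBN 5 of 10 (median -0.49; 12.4%). The neighbours of FANCI on chromosome 15 had a median of -0.91, and 5 of 10 fell (12.4%). The nearest genes on either side were MTCP1 (-1.17) and VBP1 (-1.50) for BRCC3, GEM (-0.36) and VIRMA (-0.83) for RAD54B, OSGIN2 (-1.90) and DECR1 (0.40) for NBN, and ABHD2 (-1.08) and POLG (-0.75) for FANCI. WRN, which rose, is on chromosome 8 as well, and 7 of its 10 neighbours, from RBPMS to ZNF703, rose (median 0.58; 1.76%). Around MRE11 on chromosome 11, 8 of 10 fell (median -0.57; 1.87%). Around BRCA1, which fell, 1 of 10 fell (81.6%) and the median was 0.02. Around XRCC3, which did not pass the test at -0.28, 6 of 10 rose (median 0.53; 3.04%). Around ATR on chromosome 3 and XRCC2 on chromosome 7, 6 of 10 fell (medians -0.65 and -0.49; 7.01% for each). These nearest genes, and the values for WRN, MRE11, BRCA1, XRCC3, ATR and XRCC2, were chosen after they were seen. The part of chromosomal position in the changes was not tested.

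**Figure D5:**
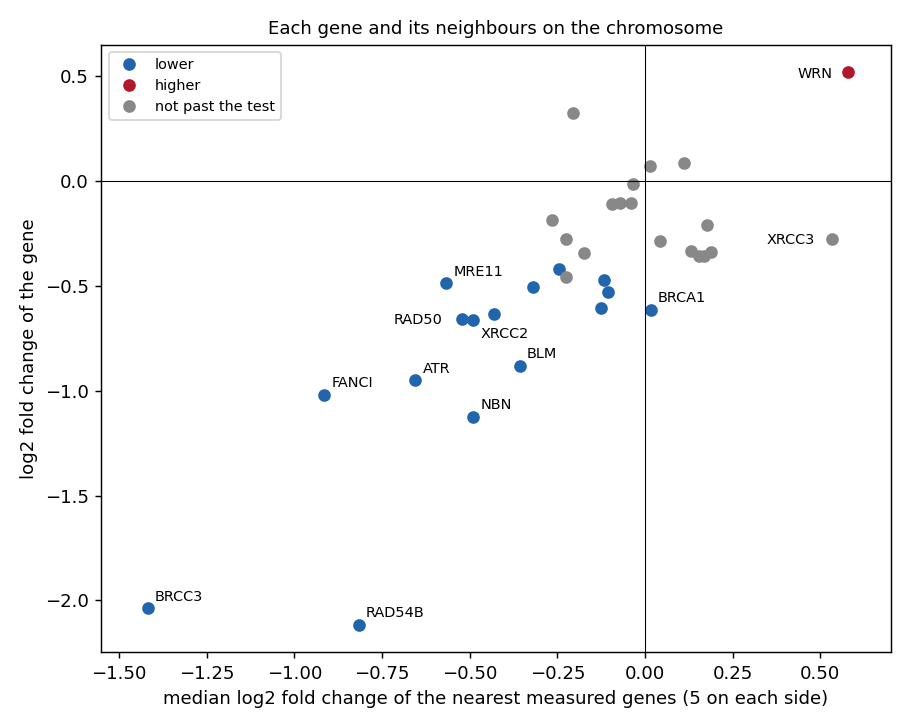
Log2 fold change of each of the 35 genes (vertical axis) against the median log2 fold change of its nearest measured genes, 5 on each side (horizontal axis), resistant over sensitive. BRCC3 lies at -1.42 and -2.04, WRN at 0.58 and 0.52, and BRCA1 fell beside neighbours with a median of 0.02.

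The label of the cells was checked against markers. EPCAM, an epithelial adhesion protein, was at 322 ± 21.2 in sensitive and at 319 ± 2.54 in resistant cells (SD, n = 3), and KRT20, an intestinal keratin, at 245 ± 13.1 and 164 ± 32.0. Of 13 colon epithelial markers 10 were tested, and CDX1, CDX2 and GPA33 were too dim. Of the 10, 7 fell (70%), with a median of -0.54, where 22.5% of all genes tested fell, with a median of -0.10. Among the 7 were CDH1 (-1.63), the epithelial cadherin, KRT8 (-0.77), a keratin, and LGALS4 (-0.71), a gut galectin. CDH17, the intestinal cadherin, rose (1.20). The summed signal of the 13 was from 2229.97 to 2449 in sensitive and from 1646 to 1868 in resistant cells. Of 13 markers of other cell types with a probe set, 11 were too dim to be tested, and their summed signal ranged from 7.64 to 11.7 and from 7.31 to 9.65. CD14, a monocyte marker, fell from 2.41 ± 0.768 to 0.463 ± 0.353, and PECAM1, of endothelium, did not pass the test. The part of these markers in the results was not tested.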

How the data were processed

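Affymetrix HG U133 Plus 2.0 arrays of 3 sensitive and 3 resistant HT29 samples were compared, grouped by the submitters' labels. The authors deposited MAS5 values, a linear intensity per probe set. Which version of MAS5 was run is not stated in the sources. The study divides these values by the array median in GeneSpring and applies a t-test with a fold threshold. The table holds 54675 probe sets, of which 62 are controls. A platform annotation named 1 gene for 41091, several for 1801 (not used) and none for 11721, and symbols were updated through the RefSeq table of GRCh38.p14. MRE11 is listed under the older symbol MRE11A.

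Intensities were scaled to an array median of 1 (deposited medians from 13.3 to 16.9), floored at 0.01 and taken to log2. Each gene was fitted by its brightest probe set, and genes with a mean of at least 1 were tested with lmFit and eBayes with a trend in limma 3.58.1 (R 4.3.3), with Benjamini-Hochberg adjustment over the 11835 genes and a call at an adjusted p under 0.05. The script was tested on simulated data. The number of arrays limits the precision. Division by the array median makes a change relative to the other genes of the array. Figures were drawn with matplotlib 3.10.9.

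Every member is named. Arrays are printed for members past the test at 1.5-fold or more and the largest of each role group, and for others chosen later. Up to 8 related and 4 proliferation genes with the largest changes past the test are named, with exceptions stated. The members and lists were chosen with earlier results of these data known. Same-numbered arrays of the groups had deviations correlated at 0.0752, 0.0229 and 0.0480, and other-numbered ones from -0.0668 to 0.0150. All these correlations were small, and the main fit did not pair the arrays by number. Alternatives changed the scaling, floor, pseudocount, filter, probe set rule, test, replicate block and arrays used. Promoter letters came from RefSeq windows of GRCh38.p14, found for 31 of the 35 tested members.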

Additional observations from a re-analysis of the deposited data

How the results depend on the processing

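Of the 17 members called, FANCI was the only one whose call none of the 17 alternatives ended, and the t-test with unequal variances ended the other 16. No called member changed sign, 12 members were called by no fit, and 6 not called here were called by at least 1 alternative. Against 16 members that fell and 1 that rose, a t-test in place of limma gave 10 that fell with equal variances. With unequal variances 1 fell, 0 rose and 0 fell 3-fold (here 2). The study names a t-test but not its variance assumption, and its filter on control strength was not applied here. The shares of all genes tested are not given here for these t-tests or for the fits without 1 array. With quantile normalization 14 fell and 2 rose, where 18.8% of all genes tested fell and 21.1% rose. Of the members, 2 rose with no further scaling and with the median of probe sets past the filter, and 0 without the filter on dim signals. For probe sets, the number that rose (here 1) was 2, 2 and 2 under these 3 scalings and 0 without the filter and with unequal variances, where 2 fell (here 31). The median of the members was -0.23 with quantile normalization, -0.32 with no further scaling and -0.26 with the median of probe sets past the filter, while that of all genes moved from -0.10 to 0.02, -0.05 and 0.00. The members' median minus that of all genes was -0.26 here and -0.25 with quantile normalization. Related genes that rose (here 5) numbered 12 with quantile normalization, 10 with the median of probe sets past the filter, 2 with equal and 0 with unequal variances. Those that fell (here 12) numbered 6 and 1 in these t-tests, and proliferation genes that fell (here 23) 7 and 1. The cause was not tested.

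With the mean of all probe sets, BUB1 was at 0.0426, ZSWIM7 at 0.19 and GEN1 at -0.67, all with the sign turned. Leaving out 1 array at a time gave 10 to 20 members that fell, the lowest without sensitive replicate 2, and 0 or 1 that rose, with a median from -0.44 to -0.35. It gave 24 to 34 probe sets that fell and 0 or 1 that rose, 7 to 16 related genes that fell (7 without any one sensitive array) and 4 to 7 that rose, and 16 to 24 proliferation genes that fell. With the replicate number as a block, 18 members fell and 2 rose, and 26 proliferation genes fell. Each array did correlate best with its own number, as a hint from the data. No source gives the origin of the triplicates, and 3 arrays a group limit the precision.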
